A study of Mus musculus with 8 samples.

Results

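Interferon-stimulated genes are the genes that cells switch on when an interferon reaches them, and 50 of them were followed here across hearts of mice lacking the lysine methyltransferase Set7 (gene Setd7) and of wild-type (WT) mice, each given isoproterenol or saline. The 50 were taken from the deposited count table by gene symbol, through the Ensembl gene identifiers of GENCODE release M21. They cover nucleic acid sensors, transcription factors, the ISG15 and ADP-ribose pathways, RNA-level effectors, other antiviral proteins and the interferon-inducible GTPases. All 50 matched 1 identifier each of the 55487 in the table, and all 50 passed the filter on low counts, among 17636 genes tested.

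The 4 groups, of 2 libraries each, were Set7KO given isoproterenol, Set7KO given saline, WT given isoproterenol and WT given saline. Isoproterenol, an agonist of beta-adrenergic receptors used to load the heart, was given under the skin at 60 mg/kg, and both agents were given for 14 days in a row. The knockout was global, bred from heterozygous parents, so every cell type of the heart carried it. The labels state no age, sex or strain, and they do not say that the 2 libraries of a group came from separate animals. The p-values therefore cover only the spread between libraries, which may be technical.

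Type I interferons bind the receptor IFNAR and, through JAK kinases, activate the complex ISGF3, which holds STAT2 and IRF9 and binds the interferon-stimulated response element (ISRE) in promoters. Type II interferon acts through the gamma-activated site (GAS). Products of these genes sense foreign nucleic acid, stop translation, degrade RNA or attack the membranes that enclose pathogens, and in heart muscle they are known from viral myocarditis and from tissue damage.

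The promoters of 36 members were in the RefSeq table of 300-base windows (250 bases before to 50 after a transcript start, GRCm38.p6). The ISRE core was searched as GAAA, any 2 bases and GAAA, and the GAS core as TTC, any 3 bases and GAA, on both strands, and overlapping matches were counted. At least 1 ISRE core stood in the promoters of 21 of the 36 members (58.3%), against 3.99% of 27025 genes in the table and 3.44% of its 32851 promoters. A GAS core stood in 10 of the 36 (27.8%), against 9.55% of genes and 8.3% of promoters. The windows below show kinds of arrangement found in some of the members named below, with the cores in capitals. Minus-strand windows are written as that strand reads, and an ISRE core on the other strand reads TTTC, any 2 bases and TTTC.
Ifit3, chr19:34583353-34583436, plus strand: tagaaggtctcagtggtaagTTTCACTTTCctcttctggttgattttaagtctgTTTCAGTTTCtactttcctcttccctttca
Ifit3b, chr19:34607749-34607832, plus strand: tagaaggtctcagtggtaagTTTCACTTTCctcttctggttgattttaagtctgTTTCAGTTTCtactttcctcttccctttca
Isg15, chr4:156200855-156200916, minus strand: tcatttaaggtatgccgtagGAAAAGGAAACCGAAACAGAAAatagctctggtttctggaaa
Igtp, chr11:58199491-58199551, plus strand: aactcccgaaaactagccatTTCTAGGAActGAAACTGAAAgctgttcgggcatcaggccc
Ifi203, chr1:173942498-173942547, minus strand: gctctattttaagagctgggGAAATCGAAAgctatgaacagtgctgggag
Mndal, chr1:173880194-173880243, minus strand: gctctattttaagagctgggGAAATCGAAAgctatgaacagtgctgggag
Irf1, chr11:53769904-53769953, plus strand: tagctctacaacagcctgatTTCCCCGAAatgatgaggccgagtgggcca

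The Ifit3 and Ifit3b windows matched at 84 of 84 bases, with 2 ISRE cores each. The Ifi203 and Mndal windows matched at 50 of 50 bases, so the letters in these windows do not tell the neighbours apart. A second Mndal promoter, not shown, also held 1 ISRE core, and its window matched that of Ifi203 at 7 of 50 bases. Isg15 had 3 overlapping ISRE cores, starting 78, 72 and 66 bases before the start. Igtp had a GAS core next to an ISRE core. Irf1, shown as a contrast chosen after the search, had a GAS core and no ISRE core in this window. These matches are letters in a window and show no binding. Dhx58, Gbp4, Gbp6, Ifi204, Ifi27, Iigp1, Mx1, Mx2, Oas2, Parp14, Parp9, Rtp4, Usp18 and Zbp1 had no entry.

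The libraries held 27847069 to 51705705 counts. Setd7 stood at 3.79 and 3.92 CPM (the count scaled to the size of its library) after isoproterenol and 4.45 and 5.70 CPM after saline in Set7KO hearts, and at 58.1 and 72.6 CPM after isoproterenol and 43.7 and 43.0 CPM after saline in WT hearts. Averaged over treatments it fell by 3.59 ± 0.18 (SE) on the log2 scale in Set7KO (edgeR adjusted p = 0.000356), the direction the labels give. All 10 cardiomyocyte markers had counts in every library. One feature of the libraries touches every result below. The first principal component of all genes (45.4% of the variance) placed Set7KO saline replicate 2 and both WT isoproterenol libraries between 58.6 and 67.3, and the other 5 libraries between -71.7 and -19.0. The same 3 libraries read GC-rich genes low: the median log2 deviation from the mean over libraries of the fifth of genes richest in GC, minus that of the fifth poorest in GC, was -1.08 to -0.78 in them and 0.19 to 0.86 in the other 5. Y-linked Ddx3y, Eif2s3y, Kdm5d and Uty, of low GC content, had counts in all 8 libraries and with Xist summed to 16.0 and 36.5 CPM in Set7KO saline and 34.0 and 34.3 CPM in WT isoproterenol hearts, against 6.43 to 11.3 CPM in the other 4 libraries. The part of this library difference in the results was not tested, apart from the GC offset given below. No source used here names extraction or sequencing batches. The titles carry running numbers and letters of unstated meaning: the 3 libraries with low GC-rich genes have the numbers 9, 10 and 11, the highest of the 8, and Set7KO saline replicate 2 (number 9) has the letter of both WT saline libraries.

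Across the 50 members, levels after isoproterenol were mostly below those after saline in Set7KO hearts and mostly above them in WT hearts, and no member passed the test in either genotype. The median log2 fold change was -0.72 in Set7KO, with 2 members above 0 and 48 below. It was 0.80 in WT, with 39 members above 0 and 11 below (53.2% of all genes were below 0 in Set7KO, and 52.3% above 0 in WT). Medians over all genes tested were -0.04 in Set7KO and 0.06 in WT. In 27 of the 50 members (54.0%), both Set7KO isoproterenol libraries lay below both Set7KO saline libraries while both WT isoproterenol libraries lay above both WT saline libraries, a pattern that 11.0% of all genes showed. The opposite pattern was found in 0 members and in 7.58% of genes. Median GC content was 47.4% over the members and 50.2% over all genes tested. The shares of all genes given here are not matched for GC content. The group mean was highest in Set7KO saline hearts for 16 members (14.6% of genes) and in WT isoproterenol hearts for 30 (39.1%). It was lowest in Set7KO isoproterenol hearts for 32 members (19.3%) and in WT saline hearts for 13 (31.1%).

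The summed level of the 50 members was 531 and 587 CPM after isoproterenol and 869 and 704 CPM after saline in Set7KO hearts, and 611 and 975 CPM after isoproterenol and 554 and 684 CPM after saline in WT hearts. Set7KO hearts given isoproterenol lay below those given saline, while the WT groups overlapped. WT isoproterenol replicate 2 was the highest of the 8 libraries for 32 members, and it lay above replicate 1 in 50 of 50 members, against 49.2% of all genes. The median gap between these replicates was 1.76-fold, where replicate 2 of the other groups was above replicate 1 in 26 (Set7KO isoproterenol), 22 (Set7KO saline) and 34 (WT saline) members. In hearts, a bulk library cannot tell fewer cells of a type from less RNA per cell.

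**Figure D1:**
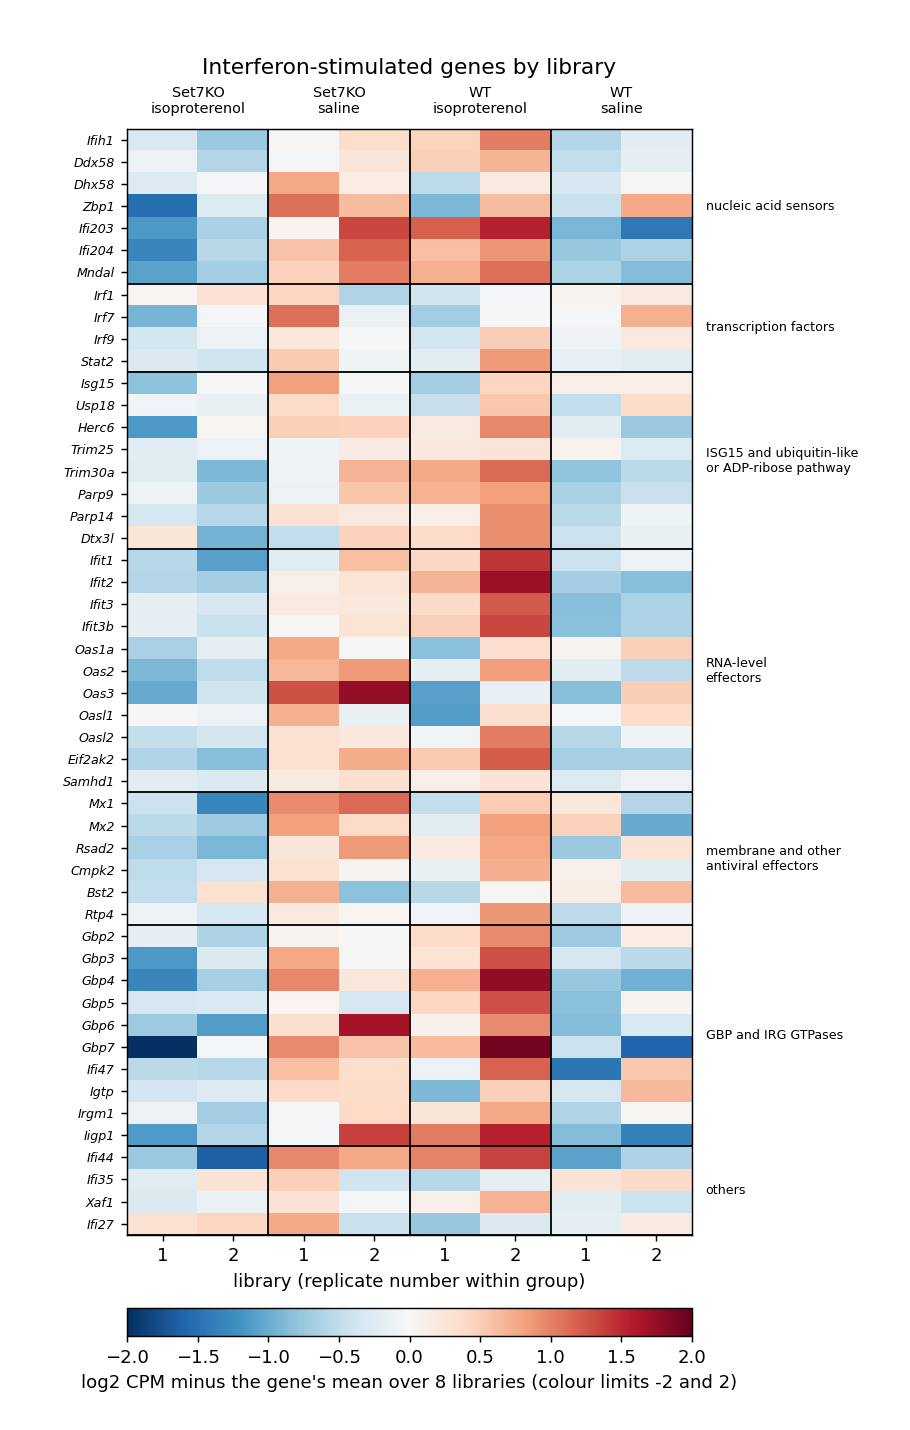
Level of each of the 50 members (rows, grouped by role) in each of the 8 libraries (columns), as log2 CPM minus the gene's mean over the libraries, with colour limits of -2 and 2. Most rows are blue in both Set7KO isoproterenol libraries, which were the lowest for 12 and 15 members, and red in WT isoproterenol replicate 2, which was the highest for 32.

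In Set7KO, isoproterenol against saline, 0 of 50 members had an edgeR adjusted p below 0.05 in either direction, where 0.0% of all genes did so. At an unadjusted p below 0.05, 0 members were higher and 20 lower, where 3.65% of genes were higher and 6.01% lower. The groups did not overlap for 39 members in the lower direction and 0 in the higher, against 18.7% and 16.0% of genes. DESeq2 called 3 members lower, Mndal, Oas2 and Gbp6, where it called 0.278% of all genes lower. With the GC and length offset it called 2 lower, Oas2 and Oas3, against 0.374% of genes, and Mndal and Gbp6 did not pass. Without Set7KO saline replicate 1 the median was -0.68, and without replicate 2 it was -0.76. Some markers of other cells lay on the same side as the members. All 6 tested neutrophil markers and all 6 erythroid markers were below 0, with medians of -2.73 and -1.15. Of these, 2 and 5 had an unadjusted p below 0.05. Of the T and NK cell, B cell and macrophage markers, 9 of 11, 6 of 6 and 10 of 13 were below 0. Their medians were -0.66, -0.32 and -0.11, with none at an unadjusted p below 0.05. Others lay on the other side: 9 of 10 fibroblast, 8 of 10 cardiomyocyte and 6 of 10 endothelial markers were above 0. Their medians were 0.65, 0.18 and 0.12. The 7 neutrophil markers summed to 12.6 and 16.1 CPM in Set7KO isoproterenol hearts and 10.7 and 113.6 CPM in Set7KO saline hearts, and the 6 erythroid markers to 4351 and 2681 CPM against 4232 and 10521 CPM. Set7KO saline replicate 2 was high in both sums and the groups overlapped, and the part of these cells in the result was not tested.

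In WT, isoproterenol against saline, 0 of 50 members passed in either direction, again against 0.0% of genes. At an unadjusted p below 0.05, 25 members were higher and 0 lower, against 18.5% of genes higher and 13.3% lower. The groups did not overlap for 30 members in the higher direction and 4 in the lower, against 39.3% and 33.4% of genes. DESeq2 called 16 members higher, where it called 8.22% of all genes higher. With the GC and length offset it called 5 higher, against 1.32% of genes. Without WT isoproterenol replicate 2 the median was 0.37 and without replicate 1 it was 1.18. The T and NK cell markers summed to 5.31 and 3.26 CPM in WT isoproterenol hearts and 11.1 and 15.7 CPM in WT saline hearts. The 6 erythroid markers summed to 1519 and 1254 CPM against 3768 and 4261 CPM, and all 6 were below 0, as in Set7KO. Both sums moved in the direction opposite to that of most members. Of 6 tested neutrophil markers, 4 were above 0, with a median of 1.55. The part of these cells in the result was not tested.

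**Figure D2:**
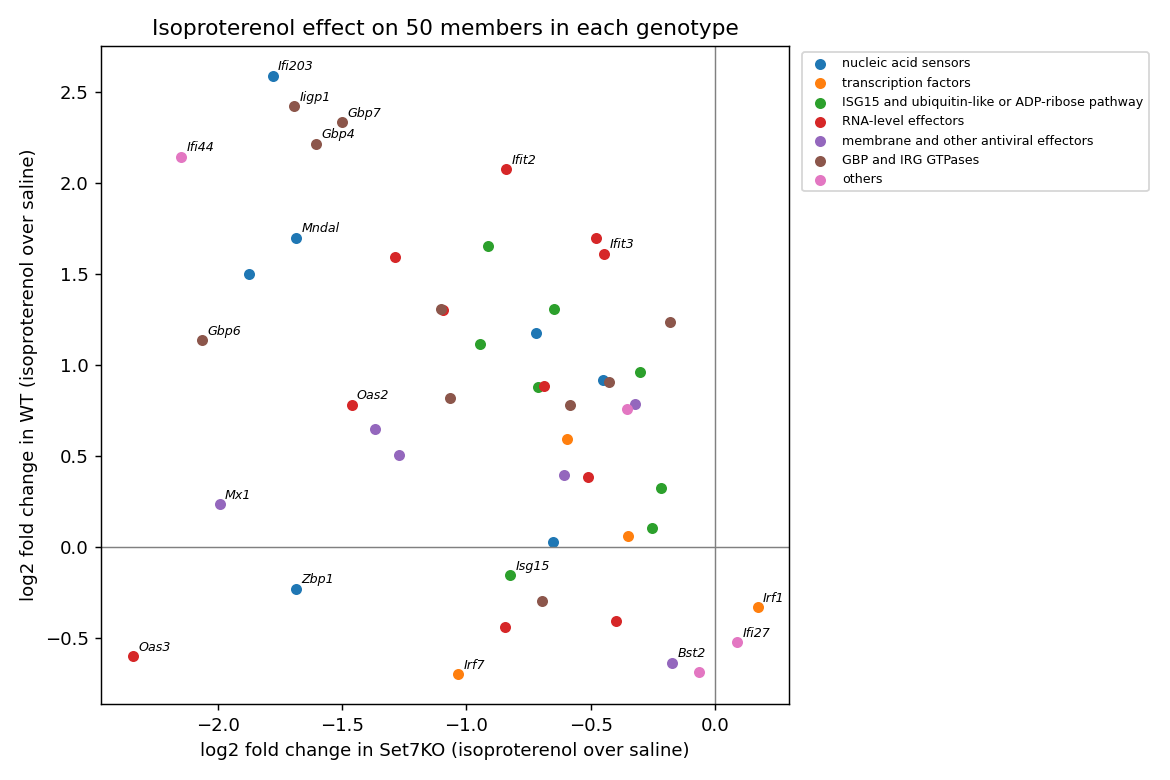
Log2 fold change of isoproterenol over saline for the 50 members, in Set7KO hearts (horizontal axis) and WT hearts (vertical axis), coloured by role. Most points lie in the upper left, since 48 members were below 0 in Set7KO and 39 above 0 in WT.

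The sensors recognise viral or misplaced RNA and DNA. Of the 7, 7 were below 0 in Set7KO and 6 above 0 in WT, with medians of -1.69 and 1.18. Ifi203, Ifi204 and Mndal belong to the interferon-inducible Ifi200 family of DNA-binding proteins, which lie together on chromosome 1. Ifi203 (ENSMUSG00000039997, chromosome 1, 173920407 to 173942672, minus strand) stood at 0.934 and 1.35 CPM after isoproterenol and 2.24 and 5.54 CPM after saline in Set7KO hearts, and 4.97 and 6.38 CPM after isoproterenol and 1.12 and 0.762 CPM after saline in WT hearts. Ifi204 (ENSMUSG00000073489, chromosome 1, 173747293 to 173766943, minus strand) stood at 0.542 and 0.951 CPM after isoproterenol and 2.15 and 3.29 CPM after saline in Set7KO hearts, and 2.20 and 2.68 CPM after isoproterenol and 0.821 and 0.895 CPM after saline in WT hearts. Mndal (ENSMUSG00000090272, chromosome 1, 173849126 to 173942491, minus strand) stood at 1.14 and 1.50 CPM after isoproterenol and 3.41 and 5.06 CPM after saline in Set7KO hearts, and 4.08 and 5.34 CPM after isoproterenol and 1.57 and 1.33 CPM after saline in WT hearts. In each of the 3, both Set7KO saline libraries and both WT isoproterenol libraries lay above all 4 others, and the Set7KO isoproterenol and WT saline values overlapped. In Set7KO the log2 fold change of Mndal was -1.69 ± 0.34 and that of Ifi204 -1.87 ± 0.41 (SE; edgeR adjusted p = 0.369 for both). In WT that of Ifi203 was 2.59 ± 0.49 (SE; edgeR adjusted p = 0.0941). Mndal and Ifi203 overlap on the same strand, and no source used here says how reads shared by such copies were counted, so their separate values are uncertain. With an offset for GC content and length, Mndal was at -1.12 in Set7KO and 0.64 in WT, and Ifi203 at -1.10 and 1.42.

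Ddx58, which encodes the RNA sensor RIG-I, and Dhx58, which encodes its regulator LGP2, had the highest levels per exon length of the sensors, 1.44 and 1.36 CPM per kb. Ddx58 stood at 8.97 and 6.48 CPM after isoproterenol and 9.62 and 11.5 CPM after saline in Set7KO hearts, and 13.6 and 15.7 CPM after isoproterenol and 6.90 and 8.58 CPM after saline in WT hearts. Its Set7KO isoproterenol libraries lay below those given saline, and its WT isoproterenol libraries were the highest of all 8. Dhx58 stood at 3.55 and 4.17 CPM after isoproterenol and 7.38 and 4.76 CPM after saline in Set7KO hearts, and 2.97 and 4.94 CPM after isoproterenol and 3.43 and 4.31 CPM after saline in WT hearts. For Dhx58 the Set7KO isoproterenol libraries lay below the Set7KO saline ones, and the WT groups overlapped. The other sensors were Ifih1, which encodes the RNA sensor MDA5, with log2 fold changes of -0.72 in Set7KO and 1.18 in WT, and Zbp1, a sensor of Z-form nucleic acid, with -1.69 and -0.23.

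The transcription factors carry the signal to DNA: STAT2 and IRF9 belong to ISGF3, IRF7 amplifies type I interferon production, and IRF1 acts in the type II response. Their medians were -0.47 in Set7KO and -0.13 in WT. Irf7 stood at 13.8 and 25.6 CPM after isoproterenol and 56.7 and 24.2 CPM after saline in Set7KO hearts, and 16.2 and 26.5 CPM after isoproterenol and 25.9 and 43.3 CPM after saline in WT hearts. The groups overlapped in both genotypes, and Set7KO saline replicate 1 was the highest library. Irf1 stood at 49.5 and 59.2 CPM after isoproterenol and 64.6 and 31.9 CPM after saline in Set7KO hearts, and 36.7 and 47.4 CPM after isoproterenol and 50.9 and 54.7 CPM after saline in WT hearts. The Set7KO groups overlapped for Irf1, and both WT isoproterenol libraries lay below both WT saline libraries. Over both genotypes, Irf7 had a log2 fold change of -0.87 ± 0.34 after isoproterenol (SE; edgeR adjusted p = 0.472). Stat2 and Irf9 had log2 fold changes of -0.59 and -0.35 in Set7KO, and of 0.59 and 0.06 in WT.

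Isg15 encodes a ubiquitin-like protein that is joined to other proteins, Herc6 its ligase in mice and Usp18 the protease that removes it. Trim25 is a ubiquitin ligase of the RIG-I pathway, and Parp9, Parp14 and Dtx3l belong to the ADP-ribose pathway. The 8 members of this group had medians of -0.68 in Set7KO and 0.92 in WT. Isg15 (ENSMUSG00000035692, chromosome 4, 156199424 to 156200818, minus strand) stood at 5.24 and 9.44 CPM after isoproterenol and 16.5 and 9.43 CPM after saline in Set7KO hearts, and 5.76 and 12.6 CPM after isoproterenol and 10.2 and 10.1 CPM after saline in WT hearts. Its groups overlapped in both genotypes, and its highest library was Set7KO saline replicate 1. Trim25 stood at 35.5 and 38.2 CPM after isoproterenol and 39.1 and 46.6 CPM after saline in Set7KO hearts, and 48.1 and 49.9 CPM after isoproterenol and 43.8 and 34.3 CPM after saline in WT hearts. For Trim25 both Set7KO isoproterenol libraries lay below both Set7KO saline libraries, and both WT isoproterenol libraries lay above both WT saline libraries. Trim30a was at -0.91 and 1.65 and Parp9 at -0.65 and 1.31 in Set7KO and in WT. Herc6 was at -0.95 and 1.12, Usp18 at -0.25 and 0.11, Parp14 at -0.71 and 0.88, and Dtx3l at -0.30 and 0.97, again for log2 fold changes in Set7KO and in WT. Dtx3l and Parp9 overlap on opposite strands, so reads of one may have been counted for the other.

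The RNA-level effectors include the IFIT proteins, which bind foreign RNA, and the OAS enzymes, which make the messenger that activates RNase L. Of the 11, 11 were below 0 in Set7KO and 8 above 0 in WT, with medians of -0.84 and 0.89. Ifit2 (ENSMUSG00000045932, chromosome 19, 34550694 to 34576419, plus strand) stood at 3.10 and 2.93 CPM after isoproterenol and 5.10 and 5.68 CPM after saline in Set7KO hearts, and 7.53 and 15.7 CPM after isoproterenol and 2.91 and 2.59 CPM after saline in WT hearts. Ifit3 (ENSMUSG00000074896, chromosome 19, 34583531 to 34588731, plus strand) stood at 12.3 and 11.0 CPM after isoproterenol and 15.7 and 16.0 CPM after saline in Set7KO hearts, and 18.1 and 32.3 CPM after isoproterenol and 7.61 and 8.85 CPM after saline in WT hearts. Ifit3b (ENSMUSG00000062488, chromosome 19, 34607970 to 34613401, plus strand) stood at 5.72 and 4.79 CPM after isoproterenol and 6.66 and 7.97 CPM after saline in Set7KO hearts, and 9.12 and 16.7 CPM after isoproterenol and 3.66 and 4.28 CPM after saline in WT hearts. For Ifit3 and Ifit3b the 4 groups did not overlap, with WT isoproterenol highest, then Set7KO saline, Set7KO isoproterenol and WT saline. For Ifit2 the order was the same, with WT isoproterenol replicate 2 far above the other 7 libraries. In WT the log2 fold changes were 2.08 ± 0.37, 1.61 ± 0.31 and 1.70 ± 0.34 for Ifit2, Ifit3 and Ifit3b (SE; edgeR adjusted p = 0.0941 for each). With the GC and length offset the Ifit3 value was 1.43. Ifit1 stood at 1.17 and 0.805 CPM after isoproterenol and 1.50 and 2.73 CPM after saline in Set7KO hearts, and 2.38 and 4.88 CPM after isoproterenol and 1.31 and 1.62 CPM after saline in WT hearts. The Ifit1 groups did not overlap within a genotype, and its Set7KO saline values overlapped both WT groups. Reads of the near-identical Ifit3 and Ifit3b may be split between them.

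Oas2 stood at 6.32 and 8.27 CPM after isoproterenol and 18.9 and 21.3 CPM after saline in Set7KO hearts, and 10.4 and 21.2 CPM after isoproterenol and 10.1 and 8.22 CPM after saline in WT hearts. Oas3 stood at 0.361 and 0.585 CPM after isoproterenol and 1.98 and 2.79 CPM after saline in Set7KO hearts, and 0.340 and 0.693 CPM after isoproterenol and 0.411 and 1.13 CPM after saline in WT hearts. Oas1a stood at 4.79 and 6.62 CPM after isoproterenol and 12.9 and 7.59 CPM after saline in Set7KO hearts, and 4.18 and 9.47 CPM after isoproterenol and 7.91 and 10.5 CPM after saline in WT hearts. All 3 were lower in both Set7KO isoproterenol libraries than in both Set7KO saline libraries. The WT groups overlapped for Oas1a and Oas3, and for Oas2 they were separated by a small gap. Oas3 had a log2 fold change of -2.34 ± 0.59 and Oas2 of -1.46 ± 0.36 in Set7KO (SE; edgeR adjusted p = 0.459 for Oas3 and 0.439 for Oas2). Eif2ak2, which encodes the RNA-activated kinase PKR that stops translation, stood at 1.81 and 1.50 CPM after isoproterenol and 3.41 and 4.66 CPM after saline in Set7KO hearts, and 3.99 and 6.44 CPM after isoproterenol and 1.72 and 1.72 CPM after saline in WT hearts. Its Set7KO saline and WT isoproterenol values lay above all others. Oasl2 was at -0.69 and 0.89, Samhd1, which removes deoxynucleotides, at -0.51 and 0.38, and Oasl1 at -0.40 and -0.41 in Set7KO and in WT.

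Bst2, the tethering protein tetherin that holds budding virus at the membrane, had the highest level per exon length of the 50, 41.9 CPM per kb. It stood at 25.4 and 44.1 CPM after isoproterenol and 58.2 and 20.1 CPM after saline in Set7KO hearts, and 24.3 and 36.6 CPM after isoproterenol and 39.3 and 55.1 CPM after saline in WT hearts. The Set7KO groups overlapped, and both WT isoproterenol libraries lay below both WT saline libraries. Rtp4, an interferon-induced zinc-finger protein, stood at 5.72 and 4.76 CPM after isoproterenol and 6.92 and 6.20 CPM after saline in Set7KO hearts, and 5.81 and 11.3 CPM after isoproterenol and 4.22 and 5.63 CPM after saline in WT hearts. Its Set7KO isoproterenol libraries lay below the Set7KO saline ones, and its WT isoproterenol libraries lay above the WT saline ones by a small gap. The dynamin-like GTPase genes Mx1 and Mx2 had log2 fold changes of -1.99 and -1.27 in Set7KO and of 0.24 and 0.50 in WT. Rsad2, the radical-SAM enzyme viperin, and its neighbour Cmpk2, a mitochondrial nucleotide kinase, had -1.37 and -0.61 in Set7KO and 0.65 and 0.40 in WT.

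The guanylate-binding proteins (GBPs) and immunity-related GTPases (IRGs) gather on vacuoles that hold pathogens. Of the 10, 10 were below 0 in Set7KO and 9 above 0 in WT, with medians of -1.08 and 1.19. Gbp4 (ENSMUSG00000079363, chromosome 5, 105115767 to 105139586, minus strand) stood at 3.16 and 4.98 CPM after isoproterenol and 15.5 and 9.27 CPM after saline in Set7KO hearts, and 13.0 and 27.2 CPM after isoproterenol and 4.63 and 4.01 CPM after saline in WT hearts. Gbp6 stood at 5.39 and 4.10 CPM after isoproterenol and 11.1 and 28.5 CPM after saline in Set7KO hearts, and 9.44 and 17.1 CPM after isoproterenol and 4.85 and 7.19 CPM after saline in WT hearts. Iigp1, an IRG (ENSMUSG00000054072, chromosome 18, 60376027 to 60392634, plus strand), stood at 3.19 and 4.65 CPM after isoproterenol and 6.89 and 18.3 CPM after saline in Set7KO hearts, and 14.5 and 20.8 CPM after isoproterenol and 3.84 and 2.72 CPM after saline in WT hearts. For all 3, both Set7KO isoproterenol libraries lay below both Set7KO saline libraries, and both WT isoproterenol libraries above both WT saline libraries. The log2 fold change of Gbp6 in Set7KO was -2.06 ± 0.50 (SE; edgeR adjusted p = 0.423), and that of Gbp4 in WT was 2.22 ± 0.44 (SE; edgeR adjusted p = 0.0941). Gbp5 stood at 7.17 and 7.35 CPM after isoproterenol and 9.30 and 7.20 CPM after saline in Set7KO hearts, and 12.1 and 22.1 CPM after isoproterenol and 5.04 and 9.45 CPM after saline in WT hearts. Gbp2 stood at 17.4 and 12.8 CPM after isoproterenol and 20.8 and 19.9 CPM after saline in Set7KO hearts, and 25.6 and 38.1 CPM after isoproterenol and 12.0 and 21.9 CPM after saline in WT hearts. Igtp, an IRG also called Irgm3, stood at 27.2 and 29.8 CPM after isoproterenol and 46.3 and 45.9 CPM after saline in Set7KO hearts, and 19.0 and 49.3 CPM after isoproterenol and 28.0 and 55.6 CPM after saline in WT hearts. The Set7KO groups overlapped for Gbp5, and for Gbp2 and Igtp isoproterenol lay below saline. The WT isoproterenol libraries lay above the saline ones for Gbp2 and Gbp5, and the WT groups overlapped for Igtp. Gbp7 was at -1.50 and 2.34, Gbp3 at -1.10 and 1.31, Ifi47 at -1.06 and 0.82, and Irgm1 at -0.58 and 0.78 in Set7KO and in WT.

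Ifi27, Ifi35, Xaf1 and Ifi44 are interferon-induced proteins of other kinds. Ifi27 stood at 70.7 and 77.1 CPM after isoproterenol and 97.0 and 41.9 CPM after saline in Set7KO hearts, and 33.7 and 46.5 CPM after isoproterenol and 50.3 and 64.7 CPM after saline in WT hearts. Ifi35 stood at 28.9 and 41.5 CPM after isoproterenol and 47.6 and 26.1 CPM after saline in Set7KO hearts, and 23.1 and 30.2 CPM after isoproterenol and 41.2 and 44.6 CPM after saline in WT hearts. For both genes the Set7KO groups overlapped and WT isoproterenol lay below WT saline. Together with Irf1 and Bst2 they were the 4 members that were lower after isoproterenol in WT with no overlap. Xaf1 was at -0.35 and 0.76, and Ifi44 at -2.15 and 2.15 in Set7KO and in WT.

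**Figure D3:**
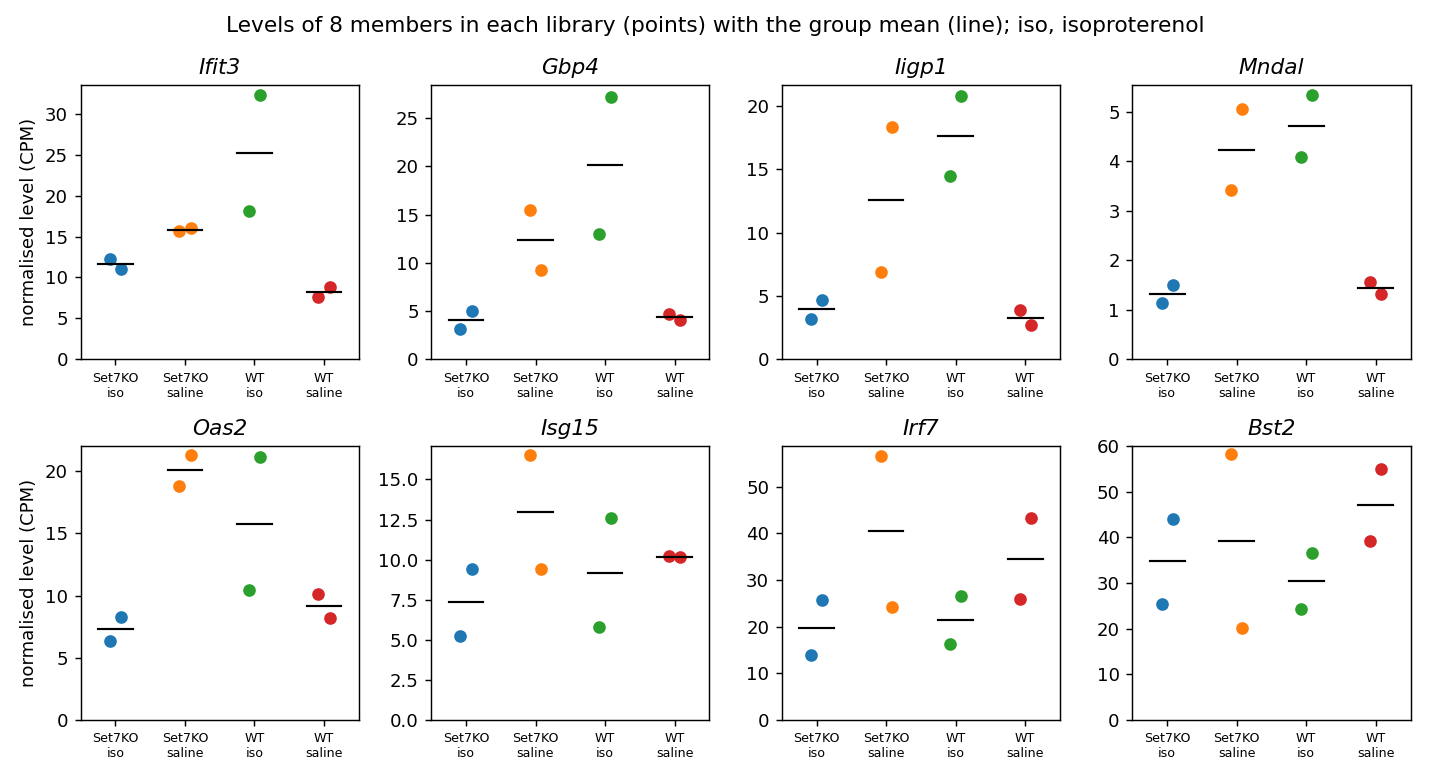
Normalised level (CPM) of 8 members in each library (points) with the group mean (line). Gbp4, Iigp1 and Mndal are high in Set7KO saline and WT isoproterenol hearts and low in the other groups, whereas the groups overlap for Isg15 and Irf7 in both genotypes.

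Members also sat together in the genome, 25 of them in 9 clusters with gaps of at most 200 kb. The 4 Ifit genes (chromosome 19, 34550694 to 34650009, GRCm38) had log2 fold changes of -1.10 to -0.45 in Set7KO and 1.30 to 2.08 in WT. The 3 Ifi200 genes on chromosome 1 (173747293 to 173942672) ranged over -1.87 to -1.69 in Set7KO and 1.50 to 2.59 in WT. The 3 Oas genes on chromosome 5 (120730333 to 120907521) ranged over -2.34 to -0.85 in Set7KO and -0.60 to 0.78 in WT. Neighbours shared a direction in the Ifit and Ifi200 clusters in both genotypes, and the Oas genes did so in Set7KO. As 48 of the 50 members were below 0 in Set7KO and 39 above 0 in WT, a shared direction is not particular to neighbours. In Set7KO all members of all 9 clusters were below 0. In Set7KO the 21 members with an ISRE core had a median log2 fold change of -0.82 (median GC content 45.9%), against -0.51 for the 15 without one (49.3%). In WT these medians were 1.18 and 0.40. The 14 members with no promoter entry had medians of -1.37 in Set7KO and 0.79 in WT, and all 3 sets are given as a description with no test.

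With all 8 libraries, GC content ran along with the size of the isoproterenol effect. Over the 50 members, which share their libraries, Spearman's rho between log2 fold change and GC content was 0.50 in Set7KO and -0.87 in WT. Over all genes tested it was 0.49 in Set7KO and -0.71 in WT. With 1 library left out, the Set7KO values were lowest without Set7KO saline replicate 2, 0.14 over the members and 0.03 over all genes. Without replicate 1 they were 0.67 and 0.60. The 25 members of lower GC content (38.4 to 47.3%) had medians of -1.10 in Set7KO and 1.30 in WT. The 25 of higher GC content (47.4 to 56.3%) had -0.51 in Set7KO, with 23 below 0, and 0.06 in WT, with 14 above 0. With the GC and length offset, the median over all 50 was -0.64 in Set7KO, with 49 below 0, and 0.49 in WT, with 40 above 0. Medians over all genes tested were -0.07 in Set7KO and 0.15 in WT with this offset. The GC half-lists then stood at -0.89 (lower GC) and -0.59 (higher GC) in Set7KO, and at 0.56 and 0.32 in WT. The direction of the 2 medians was thus the same with and without the offset, and the WT median was smaller with it.

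**Figure D4:**
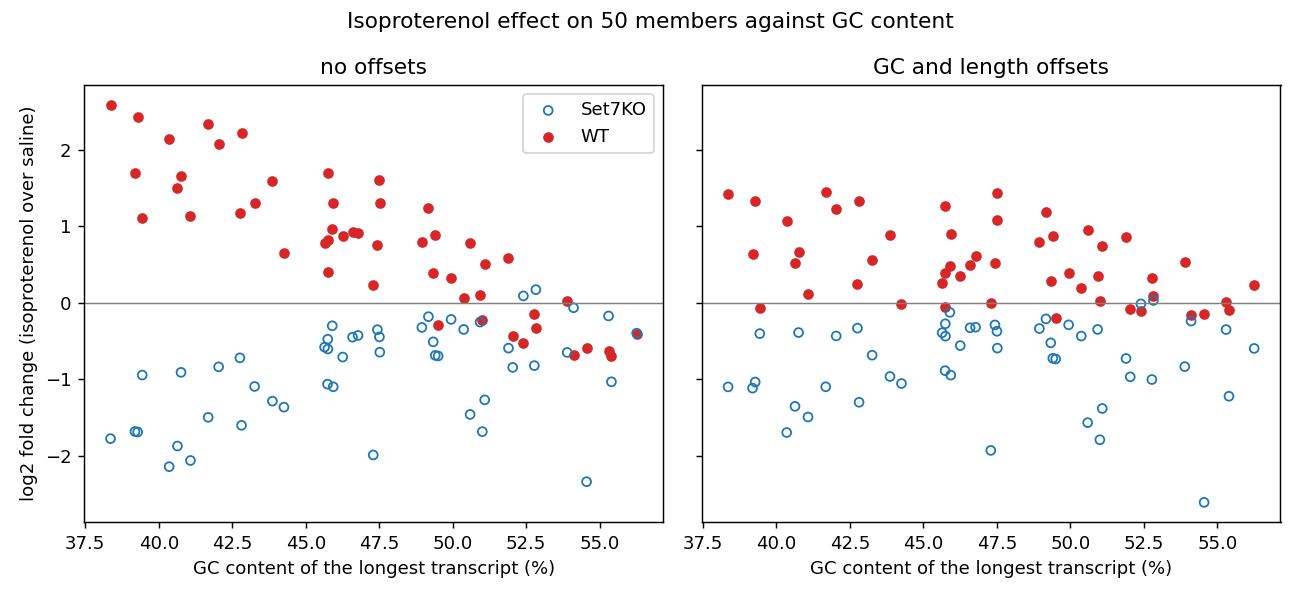
Log2 fold change of isoproterenol over saline against GC content of the longest transcript for the 50 members, in Set7KO (open circles) and WT (filled circles), with no offset (left) and with offsets for GC content and length (right). The Set7KO circles lie mostly below 0 in both panels, and the WT slope seen on the left, Spearman's rho -0.87, is -0.45 on the right.

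The genotypes were then set against each other within a treatment. These comparisons share libraries with those above, and only their own values are given. After saline, the median log2 fold change of Set7KO over WT was 0.59, with 47 of 50 members above 0 (51.4% of genes), and the median over all genes was 0.02. No member passed the test, against 0.0% of genes called higher and 0.00567% lower. At an unadjusted p below 0.05, 16 members were higher and 0 lower, against 7.83% and 2.46% of genes. The groups did not overlap for 28 members in the higher direction, against 19.6% of genes. Without Set7KO saline replicate 1 the median was 0.52, and without replicate 2 it was 0.68. Without WT saline replicate 1 the median was 0.39, with 38 members above 0. Iigp1 had a log2 fold change of 1.95 ± 0.48 and Eif2ak2 of 1.23 ± 0.35, and the 3 Ifi200 genes ranged from 1.55 for Mndal to 2.06 for Ifi203 (SE where given; edgeR adjusted p = 0.483 for each of the 5). The 7 neutrophil markers summed to 10.7 and 113.6 CPM in Set7KO saline hearts and 4.03 and 6.00 CPM in WT saline hearts. Set7KO saline replicate 2 was the high library, and Ly6g and S100a8 had 0 counts in the WT saline hearts. The part of these cells in the result was not tested.

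After isoproterenol, the median log2 fold change of Set7KO over WT was -1.02, with 45 of 50 members below 0 (52.5% of genes), and -0.05 over all genes. No member passed, where 0.0% of genes were called higher and 0.00567% lower. At an unadjusted p below 0.05, 26 members were lower and 1 higher, against 12.7% and 7.22% of genes. The groups did not overlap for 35 members in the lower direction and 2 in the higher, against 36.3% and 31.8% of genes. Gbp4 had -2.31 ± 0.44, Ifi203 -2.31 ± 0.48, Ifit2 -1.94 ± 0.37, Mndal -1.83 ± 0.35 and Eif2ak2 -1.65 ± 0.35 (log2 fold change and SE; edgeR adjusted p = 0.229 for each). DESeq2 called 9 members lower, where it called 1.26% of all genes lower. With the GC and length offset DESeq2 gave none of these 9 an adjusted p, so its calls cannot be compared. The DESeq2 median with the offset was -0.75. The median was -0.55 without WT isoproterenol replicate 2 and -1.41 without replicate 1. The 13 T and NK cell markers summed to 9.19 and 9.29 CPM in Set7KO isoproterenol hearts and 5.31 and 3.26 CPM in WT isoproterenol hearts, the 8 B cell markers to 21.2 and 17.1 against 8.92 and 6.73 CPM, and the 14 macrophage markers to 465 and 673 against 410 and 358 CPM. Ncr1 had 0 counts in the Set7KO isoproterenol hearts, Ms4a1 in both isoproterenol groups and Cr2 in all 8 libraries. Of the markers tested, 10 of 11 T and NK cell and 5 of 6 B cell markers were above 0. The macrophage markers were mixed, with 9 above 0 and 4 below, and a median of 0.28. All 3 sums were higher in Set7KO, whereas most members were lower, and their part in the result was not tested.

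The interaction is the isoproterenol effect in Set7KO minus that in WT, and it was the direct test of whether that effect differed between genotypes. Its median was -1.58, with 45 of 50 members below 0 (51.6% of genes), and the median over all genes was -0.05. No member passed, against 0.0% of genes in each direction, and the lowest edgeR adjusted p was 0.0876. An unadjusted p below 0.05 was found for 31 members in the lower direction and 0 in the higher, against 18.6% and 12.0% of genes. Ifi203 had -4.37 ± 0.69, Iigp1 -4.12 ± 0.68, Gbp4 -3.82 ± 0.62, Mndal -3.39 ± 0.49 and Ifi204 -3.38 ± 0.57 (log2 difference and SE; edgeR adjusted p = 0.0876 for each). DESeq2 called 21 members lower, where it called 8.5% of all genes lower, and with the GC and length offset it called 7, against 1.06% of genes. Without Set7KO saline replicate 1 the median was -1.54, and without replicate 2 it was -1.59. The edgeR median was -1.26 with the offset (-0.19 over all genes), -1.11 without WT isoproterenol replicate 2 and -2.02 without replicate 1.

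Averaged over genotypes, isoproterenol against saline gave a median of 0.00, with 26 members above 0 and 24 below and none passing, where 0.0113% of genes were called higher and 0.0397% lower. At an unadjusted p below 0.05, 3 members were higher and 2 lower, against 4.5% and 4.9% of genes. The 4 isoproterenol libraries lay apart from the 4 saline libraries in 0 members, against 2.11% of genes in the higher and 2.01% in the lower direction. The 5 members with the smallest p were Oas3 at -1.47 ± 0.41, Ifit3 at 0.58 ± 0.21, Ifit3b at 0.61 ± 0.24, Ifit2 at 0.62 ± 0.26 and Irf7, whose negative value is given above (log2 fold change and SE; edgeR adjusted p = 0.316 for Oas3). Averaged over treatments, Set7KO against WT gave a median of -0.14, with 11 above 0 and 39 below and none passing, where 0.0% of genes were called higher and 0.00567% lower. No member had an unadjusted p below 0.05, against 0.987% of genes higher and 0.578% lower. Ifi27 had 0.58 ± 0.27, Ifit1 -0.66 ± 0.33, Gbp5 -0.52 ± 0.27, Ifit2 -0.49 ± 0.26 and Oas3 0.75 ± 0.41 (log2 fold change and SE; edgeR adjusted p = 1.00 for each).

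The interferons themselves had few or no counts. Of 19 ligand genes, 17 had 0 counts in all 8 libraries, Ifnb1 among them. The gene Ifng had 8 counts in total and Ifnz 17. At 3 counts per library, a count of 0 allows up to 0.0598 to 0.112 CPM, counting error only. Of the 14 receptor and signalling genes, all tested, medians were 0.01 in Set7KO and 0.31 in WT, and none passed. Ifnar1, a chain of the type I receptor, stood at 31.0 and 26.6 CPM after isoproterenol and 29.9 and 26.9 CPM after saline in Set7KO hearts, and 33.8 and 31.5 CPM after isoproterenol and 30.9 and 22.6 CPM after saline in WT hearts. The Set7KO groups overlapped, and in WT its isoproterenol libraries lay above the saline ones. Of 19 genes of the sensing pathway, 18 were tested and none passed, with medians of -0.11 in Set7KO and -0.33 in WT.

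A wider list of 85 other interferon-stimulated genes, 81 of them tested, had medians of -0.50 in Set7KO and 0.31 in WT. None passed, and at an unadjusted p below 0.05, 0 were higher and 18 lower in Set7KO, and 23 higher and 7 lower in WT, against the shares of all genes given above, 3.65% and 6.01% in Set7KO and 18.5% and 13.3% in WT. Gbp9 stood at 4.28 and 6.04 CPM after isoproterenol and 11.1 and 9.49 CPM after saline in Set7KO hearts, and 14.2 and 21.8 CPM after isoproterenol and 6.34 and 4.47 CPM after saline in WT hearts. Slfn5, a Schlafen protein, stood at 17.7 and 17.8 CPM after isoproterenol and 24.5 and 44.1 CPM after saline in Set7KO hearts, and 40.3 and 52.3 CPM after isoproterenol and 15.5 and 16.3 CPM after saline in WT hearts. Tnfsf10, the death ligand TRAIL, stood at 8.25 and 4.10 CPM after isoproterenol and 6.76 and 9.57 CPM after saline in Set7KO hearts, and 14.5 and 14.8 CPM after isoproterenol and 3.99 and 4.21 CPM after saline in WT hearts. The Set7KO isoproterenol libraries lay below the Set7KO saline ones for Gbp9 and Slfn5, and overlapped them for Tnfsf10. The WT isoproterenol libraries lay above the WT saline ones for all 3. In Set7KO, Gbp10 had -2.41 ± 0.64 and Gbp8 -3.19 ± 1.02 (log2 fold change and SE; edgeR adjusted p = 0.465 for Gbp10). In WT the log2 fold changes were 1.73 ± 0.33, 1.54 ± 0.30 and 1.84 ± 0.36 (SE; edgeR adjusted p = 0.0941 for each).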

How the data were processed

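Total RNA from heart was made into stranded mRNA libraries and sequenced for 75 cycles, per the labels' protocols. HISAT2, HISAT, StringTie, edgeR and the build GRCm38 are listed, without versions or roles, per the submitters' processing notes. The authors deposited read counts per gene, which are not normalized. No source used here says how shared reads and strand were handled.

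From the deposited counts, 55227 of 55487 identifiers were named with GENCODE M21. Genes were filtered with filterByExpr, scaled by TMM and fitted over 8 libraries and 4 group means with edgeR 4.0.16 (R 4.3.3; quasi-likelihood test, two-sided, Benjamini-Hochberg adjustment over 17636 genes, threshold 0.05). The common coefficient of variation was 28.4% and residual degrees of freedom 4. limma 3.58.1 and DESeq2 1.42.0 were alternatives. GC content and length entered as spline offsets (5 df each) in further alternatives. Scripts were tested on simulated data.

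The members and lists were chosen with earlier results of these data known. Named were, per comparison, the 5 members with the smallest p at 1 CPM or more on average, and per role the 2 highest per exon length; from other lists, the 3 smallest p per comparison. One gene that this rule names is not reported here.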

Additional observations from a re-analysis of the deposited data

Results flagged for a closer look

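The isoproterenol effect took opposite directions in the genotypes for 27 members. In these, both Set7KO isoproterenol libraries lay below both Set7KO saline libraries, and both WT isoproterenol libraries lay above both WT saline libraries. Of all genes, 11.0% showed this pattern, a share not matched for the lower median GC content of the members. The pattern was not tested for the 27 as a set. In the edgeR interaction test, 5 named members had a log2 difference of -3.39 for Mndal, -4.37 for Ifi203, -3.82 for Gbp4, -4.12 for Iigp1 and -3.38 for Ifi204, each with an adjusted p of 0.0876, which did not pass the threshold of 0.05.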

How the results depend on the processing

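The medians within each genotype, within each treatment and of the interaction kept their sign under the alternatives run, 17 at most, while the averaged ones crossed 0, from -0.18 to 0.14 for isoproterenol over saline and from -0.31 to 0.08 for Set7KO over WT. Counts of members called were 0 in every comparison in edgeR with the count filter and all 8 libraries. The share of all genes called in the same direction is given after each count here, except for fits with 1 library left out. For isoproterenol in Set7KO, DESeq2 called 3 lower (0.278%) and, with GC and length offsets, 2 lower (0.374%). In WT, 13 were higher without a filter (3.99%), 16 in DESeq2 (8.22%) and 5 in DESeq2 with the offsets (1.32%). With only the compared groups the WT count was 18, of which 17 were higher (16.8%) and 1 lower (12.9%). For Set7KO over WT, DESeq2 called 1 higher after saline (0.0964%) and 9 lower after isoproterenol (1.26%). With the offsets it called 0 higher after saline (0.034%). After isoproterenol with the offsets, none of those 9 had an adjusted p, so the calls cannot be compared. After isoproterenol the compared groups alone gave 17, of which 16 were lower (6.52%) and 1 higher (1.16%). For the interaction, 20 were lower without a filter (5.39%), 21 in DESeq2 (8.5%) and 7 in DESeq2 with the offsets (1.06%). Leaving out 1 library gave 0 to 5 (Set7KO), 0 to 15 (WT), 0 to 5 (genotypes after saline) and 0 to 25 (interaction). Each of these fits left 1 group with 1 library, so these counts are not weighed here. The 25 for the interaction held members called in both directions. In the fits with the highest counts, more of all genes were called as well than with all 8 libraries. The WT median was 0.49 with offsets in edgeR and in DESeq2. It was 0.48 with offsets and Set7KO saline replicate 2 left out, and 0.37 to 1.18 with 1 library out. Set7KO over WT after saline had 0.39 to 0.79 with 1 library out. Set7KO over WT after isoproterenol had -0.71 with offsets and that library out, and -1.41 to -0.55 with 1 library out. The interaction had -1.26 with offsets, -1.31 with offsets and that library out, -1.27 with offsets in DESeq2, and -2.02 to -1.11 with 1 library out. The offsets combined with that library left out, and those in DESeq2, were chosen after seeing the data, and the cause of these shifts was not tested. No paired analysis was possible because the titles carry no replicate numbers shared between groups. Members near 1 CPM, such as Oas3 and Mx1, rest on the fewest counts.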
